A study of Mus musculus with 10 samples.

Results

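The transcriptome of C2C12 cells depleted of Huwe1 was compared with that of control cells at day 6 of myogenic differentiation, and the families of genes that were higher or lower in the knockdown are described here. C2C12 is an established mouse myoblast line that fuses into contractile myotubes when serum is withdrawn. Genes were chosen by level alone, as those that reached 1 FPKM in either column of the day 6 table, and 11695 of 23417 listed genes met this limit. FPKM count the sequenced fragments of a gene per length of transcript and per depth of library. The comparison used 3 of the 10 samples of the series: 1 control library from wildtype C2C12 cells and 2 Huwe1 knockdown libraries, each made with a different short hairpin RNA (shRNA). The deposited table holds 1 FPKM value for the control and 1 value for both knockdown libraries pooled, so no difference below has a replicate check, no test was run and the agreement of the 2 hairpins could not be seen. Ratios are log2 values of knockdown over control, after 0.01 FPKM had been added to both, so that 1 stands for a 2-fold difference. The labels give the day 6 control no hairpin, so that loss of Huwe1 and the expression of any hairpin cannot be told apart. In bulk RNA, fewer cells of a type and less RNA per cell cannot be told apart either.

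Huwe1 is a very large HECT-domain ubiquitin ligase that attaches ubiquitin chains to proteins, many of which are then degraded by the proteasome. The study asked whether it controls the amount of the TATA-binding protein, Tbp, during muscle differentiation, and the deubiquitinase Usp10 is the enzyme set against it. When myoblasts differentiate they leave the cell cycle, switch on myogenin and the contractile genes, and lower many genes of the growing, matrix-secreting state.

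The hairpin targets given by the labels for both day 6 knockdown libraries are shown because everything below rests on them. They were matched to GENCODE transcripts (release vM21, build GRCm38), where each was found in Huwe1 and in no other gene, in its coding sequence on the plus strand of chromosome X.
Huwe1 hairpin 1: gggaacctgtgattcgaga
Huwe1 hairpin 2: gagaagaggACAACTAGTA
The target of hairpin 1 lies within exon 32 of 83, at chrX:151883185-151883203. The target of hairpin 2 spans the junction of exons 8 and 9, from 151852544 to 151853408, and the capitals mark its bases in exon 9. The study's methods list other hairpins, which the labels give for the day 8 samples.

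Huwe1 itself, at chrX:151803282-151935417, was listed at 35.1 FPKM in control and 21.9 FPKM in knockdown cells, a log2 ratio of -0.68 and a 1.61-fold decrease. Usp10 went the other way, from 13.2 to 35.4 FPKM (log2 ratio 1.42). The mRNA of Tbp was within 2-fold, at 10.8 and 14.6 FPKM (0.43), but a second control column, described below, held it at 27.8 FPKM (-0.93). The cells carried muscle transcripts in both conditions. M-cadherin (Cdh15) was at 121 FPKM in both columns and desmin (Des) at 1769 and 1083 FPKM, while skeletal actin (Acta1) was at 4282 FPKM in control and 932 FPKM in knockdown cells.

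Depth is given only for unpooled columns, estimated from genes with long transcripts whose lowest FPKM values cluster at the worth of 1 fragment. In the day 6 control, 1 FPKM on a transcript of 2000 bases stood for about 59.8 fragments. Genes well under 1 FPKM in the control therefore rest on few fragments. A second day 6 control column exists in the table of the USP10 experiment. Its header names the same reads, but its values differ from those of the day 6 control and 1 FPKM on the same length stood for about 16.0 fragments there, so that its library is not certain. The tables were normalized separately, and this column serves below only as a description of how far control values can lie apart. Ratios to either control share the same pooled knockdown value, so a like direction against both is partly built in and is no independent check. Between both control columns, 19.8% of genes were at least 2-fold apart after centring on the median gene.

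In all, 2061 genes were at least 2-fold higher in the knockdown (17.6% of those kept) and 1571 were at least 2-fold lower (13.4%), or 31.1% in all. Of these, 553 and 380 were past 8-fold. The shares of 17.6% and 13.4% are the background for each day 6 list count below, and a list near them differs little from all genes kept. The median gene had a log2 ratio of -0.01, a value that the scaling within the table sets near 0. The lower genes included many abundant transcripts and made up 26.6% of the summed FPKM of kept genes in control cells and 6.96% in knockdown cells, whereas the higher genes went from 4.09% to 18.8%. Set against the second control column, 1064 of the higher genes (51.6%) and 823 of the lower genes (52.4%) were again at least 2-fold apart in the same direction. With 1 value per condition, a gene kept only because it reached 1 FPKM in a single column is bound to lie on that column's side: 876 kept genes were under 1 FPKM in control cells and 527 in knockdown cells.

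Ranked over 6762 genes that reached 10 FPKM in 1 column and 1 FPKM in both, the largest increases were led by secreted and surface proteins of connective tissue cells. Decorin (Dcn), a proteoglycan that binds collagen fibrils, went from 7.94 to 2987 FPKM (log2 ratio 8.55). It was followed by the stem cell antigen Sca-1 (Ly6a), at 2.54 and 584 FPKM, and by Cd34, a surface sialomucin of progenitor cells, at 1.59 and 145 FPKM. The chemokine Cxcl12 (1.25 to 102 FPKM), matrix Gla protein (Mgp, 23.5 to 1697 FPKM), thrombospondin 2 (Thbs2, 4.12 to 238 FPKM) and connective tissue growth factor (Ctgf, 6.04 to 260 FPKM) belong to the same secreted group. The rest of the 12 largest were the phospholipase Pla1a (3.58 to 218 FPKM), cyclin D1 (Ccnd1, 1.03 to 69.1 FPKM), the growth cone protein Basp1 (3.34 to 129 FPKM), the uncharacterized Gm773 (1.26 to 57.2 FPKM) and the aldehyde dehydrogenase Aldh3a1 (1.62 to 54.6 FPKM).

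The 12 largest decreases were led by a surface glycoprotein, Cd24a, which went from 167 to 1.16 FPKM (log2 ratio -7.17). Muscle structural proteins took 6 places. They were the actin-binding Cap2 (196 to 1.40 FPKM) and Nrap (194 to 1.74 FPKM), the Z-disc protein Actn2 (278 to 4.30 FPKM) and the myosin heavy chains Myh8 (507 to 7.22 FPKM), Myh2 (126 to 2.21 FPKM) and Myh1 (2029 to 38.3 FPKM). The others were no contractile genes. Rbm24, a muscle splicing regulator, was at 130 and 1.50 FPKM, the secreted glutathione peroxidase Gpx3 at 89.7 and 1.19 FPKM, the membrane protein Lrrn1 at 62.7 and 1.03 FPKM, and the immune-inhibitory ligand Cd200 at 75.4 and 1.52 FPKM. The hormone Fgf21, a stress-induced regulator of metabolism, was at 438 FPKM in control and 7.58 FPKM in knockdown cells (log2 ratio -5.85). All 12 increases and all 12 decreases kept their direction at 2-fold or more against the second control column.

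**Figure D1:**
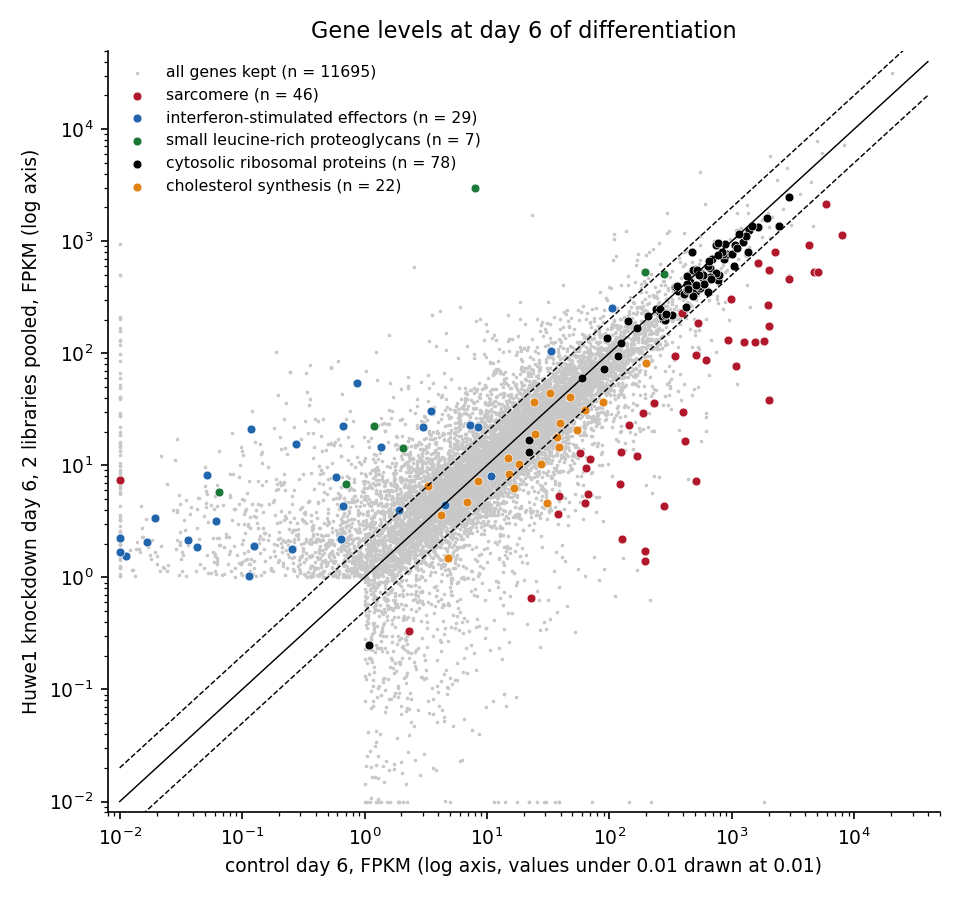
FPKM of each of the 11695 genes kept in the day 6 control (x axis) and in the pooled Huwe1 knockdown (y axis), both on log axes, with values under 0.01 drawn at 0.01. The solid line marks equal levels and the dashed lines 2-fold differences. Contractile genes (red) lie below the lines and interferon-stimulated effectors (blue) above them, ribosomal protein genes (black) lie close to the solid line, and the isolated green point at top left is Dcn.

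Outside the muscle program, interferon-stimulated genes were higher almost as a whole. These are the antiviral transcripts that cells switch on when they sense interferon or foreign nucleic acid. Of 29 effectors kept, 27 were at least 2-fold higher and 0 were at least 2-fold lower, against 17.6% and 13.4% of all genes kept, and their median log2 ratio was 3.74 against -0.01. Their control levels were mostly low: 19 of the 29 were under 1 FPKM in the control and so had been kept through the knockdown column. With 1 FPKM added in place of 0.01, their median was 1.60. Among members measured well in both columns, Ifit2, which blocks translation of viral RNA, was at 3.51 and 30.5 FPKM (log2 ratio 3.12), the apoptosis factor Xaf1 at 1.37 and 14.5 FPKM (3.39), and tetherin (Bst2), which holds budding viruses at the cell surface, at 2.98 and 22.1 FPKM (2.89). The endosomal Ifitm2 was at 33.4 and 105 FPKM, and Ifitm3, the most abundant member, at 105 and 256 FPKM (1.29). In the second control column Ifitm3 was at 271 FPKM, so that it was not higher against that column (-0.09). Several further members, named after their values were seen, had low control values and clear knockdown values. The ubiquitin-like modifier Isg15 was at 0.662 and 22.3 FPKM, Ifit1 at 0.275 and 15.4 FPKM, Ifit3 at 0.119 and 21.2 FPKM, and Ifi27l2a at 0.864 and 54.4 FPKM. The oligoadenylate synthetase Oas1a and the ubiquitin ligase Trim30a were listed at 0 in control cells and at 1.68 and 2.26 FPKM in knockdown cells. Only Isg20 (10.7 and 8.09 FPKM) and Dtx3l (4.54 and 4.45 FPKM) stayed within 2-fold.

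The effectors also stood above the second control column, where 24 of them were 2-fold higher against both controls and the median was 3.12. Of the 27 higher effectors, 23 lay over 2-fold above the level of the day 0 control. In the day 0 table, where the labels give the same hairpin targets, 15 effectors were kept and 0 were 2-fold higher or lower in the knockdown (median 0.10, with 1.90% of all genes higher). In the day 8 table, whose knockdowns used other hairpins and whose control carried a non-targeting RNA, 5 of 16 were higher and 1 was lower (median 0.49, with 7.89% of all genes higher and 10.0% lower).

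The interferon-inducible GTPases, which attack the vacuoles of intracellular pathogens, split by gene cluster. Of 15 kept, 9 were 2-fold higher and 6 lower, with a median of 2.10 that turned to -2.97 when members that did not reach 5 FPKM were left out. In the control 7 of the 15 were under 1 FPKM, and in the knockdown 2 were. These had been kept through the other column alone, so their direction was built in. All 4 members on chromosome 3 were higher, among them Gbp2 (0.108 to 4.06 FPKM) and Gbp3 (0.0875 to 4.04 FPKM), both named after their values were seen. The 5 immunity-related GTPases were higher too, with Irgm1, a regulator of autophagy, at 4.42 and 19.0 FPKM (log2 ratio 2.10). The 6 members on chromosome 5 were all lower. Gbp8 was at 29.4 and 4.17 FPKM (-2.82), Gbp9 at 24.4 and 3.07 FPKM (-2.99) and Gbp6 at 19.4 and 1.84 FPKM (-3.39). In the second control column Gbp8 was at 1.50 FPKM, Gbp9 at 1.19 FPKM and Gbp6 at 0.910 FPKM, and 0 members were 2-fold lower against both controls. All 9 of the higher members were 2-fold higher against both, which is partly built in, since both ratios share the knockdown value. The chromosome 5 genes are close copies of each other, so reads may have been shared among them and their separate values are uncertain.

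**Figure D2:**
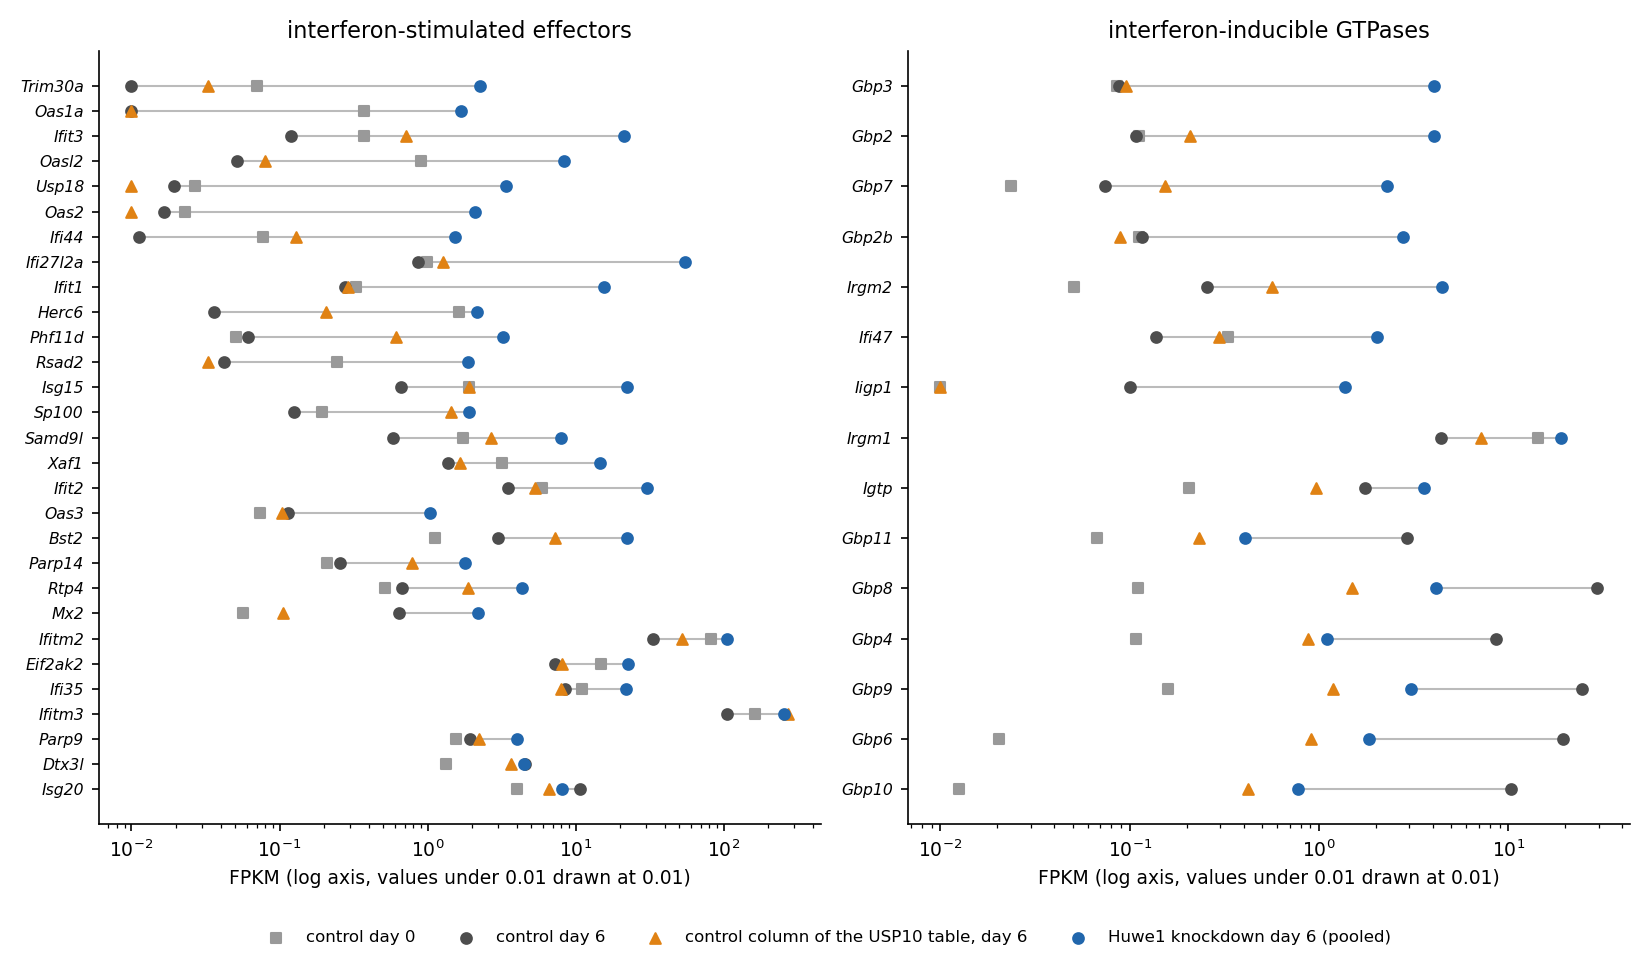
FPKM on a log axis of each interferon-stimulated effector (left) and interferon-inducible GTPase (right) in the day 6 control (dark circles), the pooled Huwe1 knockdown (blue circles), the control column of the USP10 table (orange triangles) and the day 0 control (grey squares), ordered by the log2 ratio of knockdown to day 6 control. For 27 of 29 effectors the blue circle lies at least 2-fold to the right of the dark circle, and the 6 GTPases at the bottom right are the ones on chromosome 5.

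Promoters were searched because these genes share a control element, the interferon-stimulated response element. The motif was written as GAAANNGAAA, or TTTCNNTTTC on the other strand, and looked for in RefSeq windows (build GRCm38.p6) of 250 bases before to 50 bases after each start. The windows below, in the gene's own direction, hold a match in capitals with the bases beside it.
Ifit1, chr19:34640775-34640804, plus strand: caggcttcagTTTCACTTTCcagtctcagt
Isg15, chr4:156200877-156200906, minus strand: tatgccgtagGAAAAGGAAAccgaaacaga
Rsad2, chr12:26456553-26456582, minus strand: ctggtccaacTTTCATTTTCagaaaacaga
Gbp2, chr3:142620594-142620623, plus strand: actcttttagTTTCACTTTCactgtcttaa
Irgm2, chr11:58214903-58214932, plus strand: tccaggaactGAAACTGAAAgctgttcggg
Igtp, chr11:58199512-58199541, plus strand: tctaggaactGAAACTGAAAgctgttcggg
B2m, chr2:122147538-122147567, plus strand: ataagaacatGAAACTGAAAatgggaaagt
The match began 104 bases before the start in Ifit1, 78 in Isg15, 120 in Rsad2, 59 in Gbp2, 64 in Irgm2, 34 in Igtp and 139 in B2m. Of the 8647 kept genes with a promoter in the table, 3.52% held the motif, and of all genes with such a window 3.99%. The share was 5.59% among 2-fold higher genes and 9.62% among 8-fold higher genes. It was 2.68% among 2-fold lower genes, 4.87% among 8-fold lower genes and 3.18% among genes within 2-fold. By list, it was 11 of 22 effectors with a promoter, 7 of 8 GTPases, 3 of 7 nucleic acid sensors and 5 of 15 MHC class I genes. Lists outside immunity ranged from 0, as in 36 sarcomere genes, to 3 of 12 potassium channels and 4 of 16 matricellular proteins. Ribosomal protein genes held it in 7 of 58. The 8 GTPases with a promoter include none of the 6 on chromosome 5. A match is a description of these letters and not a bound site.

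Upstream of the effectors, the sensors of foreign nucleic acid and their adaptors had 6 of 14 members higher and 0 lower (median 0.88). In the control 6 of the 14 were under 1 FPKM. They had been kept through the knockdown column and had to lie on its side. The RNA helicase RIG-I (Ddx58) was at 1.20 and 12.6 FPKM (log2 ratio 3.38) and Tlr4, the receptor for bacterial lipopolysaccharide, at 18.5 and 36.9 FPKM (1.00). The DNA sensor Aim2, named after its values were seen, was at 0.183 and 21.4 FPKM, a level close to the 21.5 FPKM of the day 0 control. Of the shared signalling factors, 5 of 15 were higher and 0 lower (median 0.86). Transcription factors of the pathway, named after their values were seen, were Irf9 (2.70 and 15.1 FPKM, 2.47) and Irf7 (0.156 and 7.25 FPKM). The receptor chain Ifnar1 was at 6.35 and 7.67 FPKM (0.27), and Irf3, which is activated without a change in its mRNA, at 8.47 and 6.79 FPKM (-0.32).

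Antigen presentation by MHC class I, which interferons induce, had 14 of 19 members higher and 0 lower (median 1.57, or 0.75 against the second control column). The light chain beta-2 microglobulin (B2m) went from 136 to 1242 FPKM (log2 ratio 3.19). Its heavy chains H2-K1 (11.4 to 69.0 FPKM, 2.60), H2-T23 (4.02 to 24.5 FPKM, 2.61) and H2-Q4 (3.60 to 28.7 FPKM, 2.99) were higher as well. These heavy chain genes are close copies, so that reads may have been shared among them. Of the 14 higher members, 7 were over 2-fold above their day 0 level and 7 within 2-fold of it.

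Among secreted mediators, chemokines and complement genes were mostly higher. Of 5 chemokines kept, 4 were higher (median 4.19), including Cxcl13, which draws B cells, at 1.68 and 30.8 FPKM, and Cxcl12 as given above. Against the second control column, 3 of the 5 were again 2-fold higher. Chemokines were also higher on the other days, with 4 of 5 kept at day 0 (median 1.57) and 4 of 6 at day 8 (2.46). Of 36 cytokines and receptors, 16 were higher and 5 lower (median 0.89, but 0.15 against the second control and 0.19 over those that reached 1 FPKM in both columns). The alarmin Il33 was at 2.60 and 29.3 FPKM (log2 ratio 3.49), Il15 at 1.25 and 12.4 FPKM (3.30) and the receptor chain Il10rb at 5.44 and 30.4 FPKM (2.48). The macrophage growth factor Csf1 was at 8.24 and 37.7 FPKM (2.19), but at 113 FPKM in the second control column. In the other direction, the TWEAK receptor Tnfrsf12a was at 174 and 79.1 FPKM (-1.14) and the receptor Il17ra at 18.7 and 7.61 FPKM (-1.29). For Tnfrsf12a the second control column was at 82.5 FPKM, close to the knockdown. Complement and related genes had 10 of 13 members higher and 2 lower (median 2.53, or 0.47 against the second control column). Cd55, which protects cells from complement, was at 3.32 and 37.1 FPKM (3.48), the protease Masp1 at 8.29 and 48.0 FPKM (2.53) and C1qtnf1 at 2.66 and 38.8 FPKM (3.86). The secreted C1qtnf3 ran against the list, at 469 and 42.4 FPKM (-3.47).

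Extracellular matrix formed the next large block. Fibrillar collagens, the main proteins of connective tissue fibrils, had 5 of 7 members higher and 0 lower (median 2.68). Col1a1 was at 4.61 and 107 FPKM (log2 ratio 4.53), Col1a2 at 42.1 and 409 FPKM (3.28) and Col3a1 at 107 and 685 FPKM (2.68). Col5a1 was at 20.2 and 51.6 FPKM (1.36). In the second control column Col1a1 was at 57.5 FPKM and Col3a1 at 341 FPKM, and the list's median against it was 0.49, with 2 members higher against both controls. Other collagens had 9 of 15 higher and 3 lower (median 1.48, or 1.09 against the second control). The basement membrane chains Col4a1 (11.1 to 47.6 FPKM, 2.10) and Col4a2 (11.9 to 47.6 FPKM, 2.00) had levels close to each other in each column. Col6a3 was at 3.03 and 24.0 FPKM (2.98), Col8a1 at 15.1 and 42.2 FPKM (1.48) and Col6a1, the most abundant member, at 37.8 and 81.2 FPKM (1.10). In the other direction, the synaptic collagen Col25a1, named after its values were seen, was at 11.2 and 0.0787 FPKM.

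Matricellular and elastic fibre proteins, which tune adhesion and growth factor access rather than bear load, had 21 of 27 members higher and 3 lower (median 2.45, or 0.35 against the second control). Besides Mgp, Thbs2 and Ctgf, versican (Vcan) was at 3.28 and 64.6 FPKM (log2 ratio 4.30). Sparc, the most abundant, was at 601 and 2144 FPKM (1.84). Wisp2 ran against the list at 21.5 and 5.73 FPKM (-1.91). Small leucine-rich proteoglycans had 6 of 7 higher and 0 lower (median 3.25), but the sign depended on the control. Osteomodulin (Omd) was at 1.20 and 22.6 FPKM with 89.5 FPKM in the second control, Prelp at 2.05 and 14.4 FPKM with 69.0 FPKM, and biglycan (Bgn) at 194 and 531 FPKM with 2089 FPKM. The list's median against that column was -1.14, and Dcn, at 50.3 FPKM there, still had a log2 ratio of 5.89.

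Basement membrane laminins, nidogens and perlecan had 6 of 11 higher and 0 lower (median 1.48, or 0.84 against the second control). The linker nidogen 1 (Nid1) was at 10.7 and 81.8 FPKM (log2 ratio 2.94), Lamb1 at 12.9 and 68.1 FPKM (2.40), Nid2 at 16.5 and 55.2 FPKM (1.74) and Lama2, the laminin of muscle basement membrane, at 9.66 and 28.7 FPKM (1.57). Perlecan (Hspg2) was at 30.1 and 83.8 FPKM (1.48). Genes that crosslink or process collagen had 7 of 15 higher and 0 lower (median 0.74), with the lysyl oxidases Lox (31.0 to 186 FPKM, 2.59) and Loxl2 (1.59 to 30.9 FPKM, 4.27), and the procollagen proteinase Bmp1 (10.6 to 46.5 FPKM, 2.14) with its enhancer Pcolce (14.8 to 129 FPKM, 3.13). All 7 lay within 2-fold of their day 0 level. Metalloproteinases and their inhibitors had 7 of 12 higher and 2 lower (median 1.46, or -0.02 against the second control, with 2 members higher against both). The inhibitor Timp3 was at 11.1 and 136 FPKM (3.62) with 256 FPKM in the second control, Timp1 at 21.5 and 65.8 FPKM (1.62) and Mmp11 at 8.55 and 41.0 FPKM (2.26), while the membrane-bound Mmp15 was at 25.0 and 3.58 FPKM (-2.80). ADAM and ADAMTS proteases had 9 of 23 higher and 3 lower (median 0.83), led by Adamts7 (3.92 to 19.6 FPKM, 2.32). Their share of lower members, 13.0%, was near the 13.4% of all genes kept.

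Receptors and adhesion proteins that bind this matrix were divided. Integrins and their binding proteins had 9 of 18 higher and 2 lower (median 0.97). The laminin receptor Itga3 was at 6.54 and 29.4 FPKM (log2 ratio 2.16) and Itga6 at 5.72 and 13.9 FPKM (1.28). Melusin (Itgb1bp2), a muscle protein that binds an integrin tail, was at 104 and 8.10 FPKM (-3.69) and Itgb6 at 9.42 and 2.43 FPKM (-1.95). The common beta chain Itgb1 was at 265 and 403 FPKM (0.60). Of 26 cadherins and protocadherins, 12 were higher and 2 lower (median 0.96). N-cadherin (Cdh2), which joins fusing myoblasts, was at 164 and 34.2 FPKM (-2.26), whereas Cdh15 was at 121 FPKM in both columns. Claudins and connexins had 4 of 7 higher and 1 lower (median 1.93, or 0.51 against the second control), with the gap junction protein Gja1 at 9.89 and 181 FPKM (4.19).

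Surface and transcript markers of mesenchymal cells and fibroblasts had 11 of 14 members higher and 0 lower (median 2.63, or 0.95 against the second control). Beside Ly6a and Cd34, dermatopontin (Dpt) was at 3.06 and 27.7 FPKM (log2 ratio 3.18) and the motility protein S100a4 at 548 and 4133 FPKM (2.91). For Ly6a the second control was at 31.3 FPKM and the day 0 control at 15.5 FPKM, and for Cd34 they were at 27.8 and 17.5 FPKM, so that the knockdown lay above every control column shown. Keratins and other intermediate filaments had 4 of 14 higher and 3 lower (median 0.24). Vimentin (Vim), the intermediate filament of mesenchymal cells and myoblasts, was at 294 and 1768 FPKM (2.59) and at 5150.2 FPKM in the day 0 control. The list of lineage factors for fat had 3 of 8 higher and 1 lower, with lipoprotein lipase (Lpl) at 9.44 and 130 FPKM (3.78) and the lipid droplet protein Plin2 at 25.9 and 102 FPKM (1.97). Among 4 bone and cartilage factors kept, 2 were higher: Bmp4 (4.56 to 22.4 FPKM) and Sox9 (7.51 to 20.6 FPKM). In the second control Bmp4 was at 45.1 FPKM, over 2-fold above the knockdown, and the list's median against it was -0.39.

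Annexins and S100 proteins, calcium-binding partners in membrane repair and at the cell cortex, were higher together. Of 9 annexins, 6 were higher and 1 lower (median 1.61, or 1.20 against the second control). Anxa1, an inhibitor of inflammation, was at 110 and 1167 FPKM (log2 ratio 3.41), Anxa5 at 27.9 and 179 FPKM (2.68), Anxa3 at 166 and 607 FPKM (1.87) and Anxa2 at 125 and 409 FPKM (1.71). Anxa11 was at 80.2 and 32.5 FPKM (-1.31). Of 12 S100 genes, 8 were higher and 1 lower (median 1.74, or 1.06 against the second control). S100a10, the partner of Anxa2, was at 113 and 731 FPKM (2.69), S100a11 at 110 and 1045 FPKM (3.25) and S100a6 at 308 and 1222 FPKM (1.99). Of the 6 higher annexins, 5 lay within 2-fold of their day 0 level.

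Growth factors had 22 of 36 members higher and 6 lower (median 1.40). In the control 12 of the 36 were under 1 FPKM and so had been kept through the knockdown column. Over members that reached 1 FPKM in both columns the median was much smaller, as given at the end. The list's median against the second control column was -0.01. The angiogenic Angpt1 was at 9.48 and 98.7 FPKM (log2 ratio 3.38), with 63.2 FPKM in the second control. Pdgfc, a mitogen of mesenchymal cells, was at 4.32 and 42.8 FPKM (3.31) with 22.8 FPKM there. The stem cell factor Kitl and Efnb2 are 2 of the 4 members higher against both, and both were named after their values were seen. Kitl was at 0.656 and 23.3 FPKM with 2.63 FPKM in the second control, and Efnb2 at 0.607 and 17.0 FPKM with 2.87 FPKM. Fgf21 and Igf2 were 2-fold lower against either control. Igf2, a growth factor induced during myogenesis, was at 613 and 20.2 FPKM (-4.92) with 249 FPKM in the second control. Receptor tyrosine kinases went both ways, 10 higher and 8 lower of 25. The muscle-restricted Fgfr4, named after its values were seen, was at 15.1 and 0.263 FPKM. The neuregulin receptor Erbb3 was at 27.5 and 3.79 FPKM (-2.86) and the ephrin receptor Ephb2 at 13.7 and 1.28 FPKM (-3.41), while the collagen receptor Ddr2 was at 34.8 and 124 FPKM (1.83).

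Developmental signalling lists had members far out on both sides. Over all genes kept, 17.6% were higher and 13.4% lower, and for TGF-beta and BMP genes the shares were 23.7% and 21.1%. TGF-beta and BMP genes had 9 higher and 8 lower of 38 (median 0.01). Follistatin (Fst), an antagonist of myostatin, was at 45.8 and 3.51 FPKM (log2 ratio -3.70), and gremlin (Grem1), an antagonist of BMPs, at 7.81 and 99.1 FPKM (3.67). Notch genes had 3 higher and 6 lower of 13 (median -0.12), with the ligand Dll1 at 15.4 and 1.64 FPKM (-3.22) and the receptor Notch2 at 10.8 and 30.7 FPKM (1.51). Wnt genes had 6 higher and 6 lower of 24 (median 0.39), with Wnt9a at 18.3 and 4.17 FPKM (-2.13). Semaphorins, plexins and neuropilins, guidance cues and their receptors, had 11 higher and 5 lower of 21 (median 1.06, or 0.16 against the second control). Sema3c was at 8.80 and 202 FPKM (4.52) and Nrp1 at 2.92 and 24.9 FPKM (3.09), against Sema4d at 13.7 and 0.0904 FPKM, the last named after its values were seen.

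Transcription factor families also had members on both sides, against 17.6% higher and 13.4% lower of all genes kept. Krueppel-like factors had 7 higher and 2 lower of 13 (median 1.12, or 0.53 against the second control). Klf4, a factor of proliferating and stem cells, was at 6.90 and 117 FPKM (log2 ratio 4.08), and Klf5 at 109 and 26.5 FPKM (-2.04). AP-1 and immediate early genes had 6 higher and 6 lower of 19 (median -0.29), with Junb at 74.2 and 11.7 FPKM (-2.66). Of 15 Hox genes, 2 were higher and 4 lower (median 0.18), and of 17 other homeobox factors 4 and 4 (median -0.34), with Irx3 at 21.1 and 1.35 FPKM (-3.96) and Meis2 at 6.64 and 44.2 FPKM (2.73). The large zinc finger family was nearly flat: 21 of 282 were higher and 20 lower (median -0.07).

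Genes of mitosis and G2 phase had 36 of 45 members higher and 0 lower (median 1.86). The levels were low. In the control 27 of the 45 were under 1 FPKM, and all 36 of the higher members were still over 2-fold below their day 0 level. Anillin (Anln), the scaffold of the contractile ring, was at 1.80 and 10.5 FPKM (log2 ratio 2.54) against 159 FPKM in the day 0 control. The phosphatase Cdc25b was at 3.82 and 13.3 FPKM (1.79) against 39.2 FPKM. The mitotic kinase Cdk1 and topoisomerase 2 (Top2a), named after their values were seen, were at 0.768 and 4.29 FPKM and at 1.26 and 6.88 FPKM, against 56.3 and 193 FPKM at day 0. Against the second control column, where Cdk1 was at 3.12 FPKM and Top2a at 5.67 FPKM, the list's median was 0.34. Replication genes had 14 of 38 higher and 1 lower (median 0.54), and E2f1, which drives S phase, was at 3.29 and 11.7 FPKM (1.83).

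Of the regulators of cell cycle exit, 4 of 13 were higher and 3 lower (median 0.45). The D cyclins Ccnd1 (1.03 to 69.1 FPKM) and Ccnd2 (1.69 to 40.5 FPKM, log2 ratio 4.57) and their kinase Cdk6 (1.13 to 17.4 FPKM, 3.93) were higher, and all 3 were also over 2-fold above the second control column, at 10.4, 13.4 and 2.06 FPKM. The inhibitor p21 (Cdkn1a), which is induced as myoblasts exit the cycle, was at 491 and 201 FPKM (-1.29). Cdkn1c, named after its values were seen, was at 8.56 and 0.0400 FPKM. Canonical histone genes had 11 of 17 lower and 0 higher (median -1.65, or -1.03 against the second control). In the knockdown 7 of the 17 were under 1 FPKM and so had been kept through the control column. Over members that reached 1 FPKM in both columns the median was smaller in size, as given at the end. The libraries were made from polyadenylated RNA, so these values cover only the polyadenylated histone transcripts. Hist1h2bc was at 187 and 21.2 FPKM (-3.14) and the linker histone Hist1h1c at 135 and 15.9 FPKM (-3.08). In the day 0 control they were at 11.1 and 12.7 FPKM, within 2-fold of the knockdown level of day 6. Hist2h2bb differed from these, at 17.1 and 14.2 FPKM (-0.27) against 182 FPKM in the day 0 control.

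In metabolism, glycolysis showed a split between isozymes. Its 20 genes had 6 higher and 6 lower members and a median of -0.02. The muscle forms were lower: phosphoglycerate mutase 2 (Pgam2) was at 254 and 7.85 FPKM (log2 ratio -5.01), muscle phosphofructokinase (Pfkm) at 362 and 46.0 FPKM (-2.98), and hexokinase 2 (Hk2) at 61.1 and 18.5 FPKM (-1.72). Forms found in most other tissues were higher. Pgam1 was at 46.3 and 194 FPKM (2.06), Pfkp at 18.9 and 72.5 FPKM (1.94), Pfkl at 10.7 and 35.4 FPKM (1.72), and Hk1 at 34.3 and 94.0 FPKM (1.46). Enolase followed the same pattern against the day 6 control, with the muscle form Eno3 at 942 and 198 FPKM (-2.25) and Eno1 at 44.5 and 223 FPKM (2.32). For Eno3 the second control column was at 104 FPKM and the log2 ratio against it was 0.92, so that Eno3 was not lower against it. Pgam2, Pfkm and Hk2 were also 2-fold lower against that column. The knockdown levels of Eno1, Pfkp, Pfkl and Hk1 lay within 2-fold of the day 0 control.

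**Figure D3:**
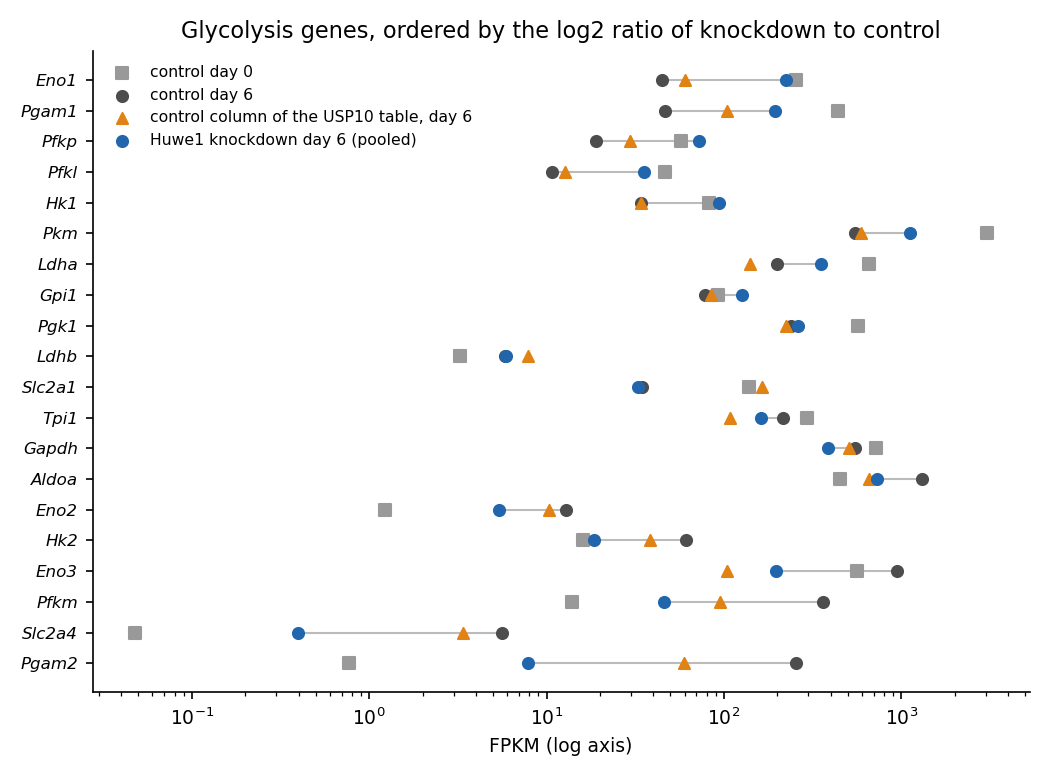
FPKM on a log axis of the 20 glycolysis genes kept, in the day 6 control (dark circles), the pooled Huwe1 knockdown (blue circles), the control column of the USP10 table (orange triangles) and the day 0 control (grey squares), ordered by log2 ratio with the largest increase at the top. The isozyme pairs Pgam1 and Pgam2, Eno1 and Eno3, and Pfkp and Pfkm lie at opposite ends.

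Most mitochondrial lists had medians below 0 by less than 2-fold, and mitochondrial carriers did not (0.05, with 5 of 35 higher and 1 lower). Subunits of respiratory complex I had a median of -0.69 over 36 genes, with 7 lower and 0 higher, and complexes II to IV a median of -0.70 over 26 genes, with 5 lower and 0 higher. ATP synthase (-0.58), the citric acid cycle (-0.61), fatty acid oxidation (-0.65) and the mitochondrial ribosome (-0.47, over 76 genes) lay in the same range. Against the second control column these 6 medians ran from -0.41 to -0.13. Cytosolic aminoacyl-tRNA synthetases and their mitochondrial forms (-0.65) and the proteasome (-0.57) had like medians. Chaperonins and cytosolic heat shock proteins had 17 of 77 lower and 3 higher (-0.43).

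The mevalonate and cholesterol pathway had 10 of 22 genes lower and 0 higher (median -0.86). Dhcr7, which carries out the last step to cholesterol, was at 30.7 and 4.65 FPKM (log2 ratio -2.72), and Fdps, the most abundant member, at 201 and 82.5 FPKM (-1.28). Cyp51, which removes a methyl group from lanosterol, was at 39.0 and 14.6 FPKM (-1.42). Against the second control column the median was -0.22, and 2 genes were 2-fold lower against both. At day 8 the list had 17 of 24 genes lower (median -1.51).

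Redox and detoxification genes went both ways. Glutathione and Nrf2 target genes had 11 of 34 higher and 4 lower (median 0.45). Beside Gpx3, superoxide dismutase 3 (Sod3) was at 27.2 and 3.37 FPKM (log2 ratio -3.01), both secreted enzymes, whereas the endoplasmic reticulum peroxiredoxin Prdx4 was at 5.05 and 59.4 FPKM (3.55) and the glutathione transferase Gstm1 at 41.7 and 171 FPKM (2.04). Both metallothioneins kept, scavengers of zinc and other metals, were lower: Mt1 was at 117 and 53.1 FPKM (-1.14) and Mt2 at 49.8 and 18.2 FPKM (-1.45). Their second control values were 179 and 116 FPKM. Eicosanoid genes had 8 of 16 higher and 4 lower (median 1.04, but 0.05 against the second control and -0.18 with either stricter minimum level (5 FPKM in either column or 1 FPKM in both)). The leukotriene enzyme Alox5 was at 18.1 and 142 FPKM (2.98) with its partner Alox5ap at 2.90 and 21.5 FPKM (2.88), and the cyclooxygenase Ptgs1 was at 8.59 and 54.1 FPKM (2.65). Prostacyclin synthase (Ptgis) was at 77.3 and 5.26 FPKM (-3.87). Retinoid and aldehyde dehydrogenase genes had 7 of 17 higher and 0 lower (median 0.42), with retinoic acid receptor Rarg at 17.2 and 53.7 FPKM (1.64).

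Serpins, inhibitors of proteases, had 9 of 18 lower and 5 higher (median -0.93, but 0.16 with either stricter minimum level (5 FPKM in either column or 1 FPKM in both)). Serpinb9c was at 14.7 and 1.48 FPKM (log2 ratio -3.31) and Serpinb1a at 83.8 and 32.9 FPKM (-1.35), while Serpinb7 was at 3.83 and 116 FPKM (4.91), with 3.06 FPKM in the second control. Amino acid transporters had 7 of 24 lower and 4 higher (median -0.42), with the arginine carrier Slc7a2 at 14.9 and 2.36 FPKM (-2.65) and the taurine carrier Slc6a6 at 257 and 97.1 FPKM (-1.41). Their share of higher members, 16.7%, was near the 17.6% of all genes kept. Kinesins and dyneins, the motors of microtubules, had 12 of 40 higher and 5 lower (median 0.42). Their share of lower members, 12.5%, was near the 13.4% of all genes kept. The dynein chain Dync1i1 was at 1.17 and 11.3 FPKM (3.27), and Kif5b, the most abundant motor, at 303 and 149 FPKM (-1.03).

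Excitable membrane genes were mostly lower. Potassium channels had 10 of 15 lower and 3 higher (median -2.33, or -1.27 against the second control, but 0.13 over the members that reached 1 FPKM in both columns). The calcium-activated channel Kcnn3 was at 38.9 and 6.65 FPKM (log2 ratio -2.55). Sodium and calcium channel subunits had 7 of 11 lower and 2 higher (median -1.48, or -0.60 against the second control, with 4 lower against both), with the voltage sensor of muscle contraction Cacna1s at 147 and 19.7 FPKM (-2.90) and Cacnb1 at 195 and 40.2 FPKM (-2.28). Acetylcholine receptor and synapse genes had 5 of 9 lower and 1 higher (median -1.06, or -0.26 against the second control, with 2 lower against both). The fetal subunit Chrng was at 744 and 102 FPKM (-2.87) and Chrnd at 315 and 48.6 FPKM (-2.70). The neural organizer agrin (Agrn) was at 4.43 and 11.2 FPKM (1.34).

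The muscle program itself is the background to these families. Of 46 sarcomere genes 44 were lower (median -2.87, or -2.16 against the second control), and 38 were 2-fold lower against both controls. Myl1, the most abundant, was at 7977 and 1132 FPKM. The exceptions were Tpm3, within 2-fold at 394 and 228 FPKM, and Xirp2, which was listed at 0 in the control, where the fit was marked as failed, and is not interpretable. Among myogenic regulators 9 of 13 were lower and 2 higher (median -1.36, or -0.56 against the second control). Myogenin (Myog) was at 619 and 27.1 FPKM (log2 ratio -4.51), Mef2c at 97.7 and 10.3 FPKM (-3.25), Myod1 at 155 and 62.7 FPKM (-1.30) and Mef2a at 224 and 87.1 FPKM (-1.36). Against the second control column Myod1 (83.5 FPKM) and Mef2a (83.3 FPKM) were within 2-fold. Myf5, the early myogenic factor, was at 3.51 and 18.5 FPKM (2.39). Genes of fusion, atrophy and muscle enzymes had 14 of 17 lower and 0 higher (median -2.60, or -1.11 against the second control). Creatine kinase (Ckm) was at 219 and 36.2 FPKM, embryonic myosin (Myh3) at 616 and 86.2 FPKM, myoglobin (Mb) at 1097 and 52.6 FPKM and the fusion protein myomaker (Tmem8c) at 1400 and 261 FPKM. Satellite and reserve cell genes had 5 of 13 lower and 2 higher (median -0.12). The chemokine receptor Cxcr4 was at 19.0 and 9.13 FPKM (-1.06). The satellite cell factor Pax7, named after its values were seen, was at 7.54 and 0.0438 FPKM, with 8.27 FPKM in the second control and 0 at day 0.

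Other families lay near 0, except the p53 targets given last. Ribosomal protein genes had 0 of 78 higher and 1 lower (median -0.23), splicing factors 1 of 65 higher and 0 lower (-0.14), Mediator subunits 0 of 29 higher and 1 lower (-0.18) and autophagy genes 0 of 30 higher and 2 lower (-0.06). RNA polymerase II and general initiation factors, the group that holds Tbp, had 1 of 49 higher and 2 lower (-0.33). HECT-domain ligases, the family of Huwe1, had 2 of 23 higher and 2 lower (-0.04) and ubiquitin-conjugating enzymes 2 of 30 higher and 0 lower (0.01). Of 11 transcripts whose proteins have been named as Huwe1 substrates, 1 was higher (Top2a) and 0 were lower (-0.34). Targets of p53 had 1 of 19 higher and 5 lower (-0.43). These are 5.26% and 26.3%, against 17.6% and 13.4% of all genes kept.

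Grouping genes by the stem of their symbol, with no list, gave 178 families of at least 8 genes. The lowest medians were those of Myh (-3.88, 10 of 12 lower), Gbp (-2.81, 6 of 10 lower), Myl (-1.67), Hist (-1.65), Asb (-1.29, 6 of 11 lower) and Serpinb (-1.15, 7 of 13 lower). The Asb genes encode ankyrin repeat proteins of ubiquitin ligases and the muscle-enriched Asb5 was at 777 and 281 FPKM. The next 6, Ndufb, Chchd, Ndufs, Fbxw, Rrp and Smim, had medians from -0.81 to -0.67. The highest was Chst, sulfotransferases that modify the sugar chains of proteoglycans, with 7 of 8 higher and a median of 2.58. Its most abundant members in either column were Chst11 at 3.43 and 18.6 FPKM and Chst1 at 0.0983 and 14.6 FPKM. After it came Rgs (1.73), Pla (1.69), Anxa (1.61), Col (1.48, 14 of 23 higher), Ifi (1.37, 7 of 9 higher), Mmp (1.30), Sema (1.26), Dock (1.24), Casp (1.21, 7 of 10 higher), Klf (1.12) and Fgf (1.12). Caspases, the proteases of apoptosis and inflammation, were led by Casp12 (12.2 to 85.3 FPKM, log2 ratio 2.80) and the inflammatory Casp4 (1.36 to 26.7 FPKM, 4.28).

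Levels were also set beside the day 0 control, to see which genes of the knockdown resembled undifferentiated cells. Of the 2061 higher genes, 963 were within 2-fold of the day 0 control, 785 were over 2-fold above it and 313 over 2-fold below it. Of the 1571 lower genes, 707 were within 2-fold, 637 above and 227 below. Over all genes kept, the median log2 ratio of the day 6 knockdown to the day 0 control was 0.06. The same counts were not made over all genes kept, so these counts cannot be called high or low. By list, the higher members over 2-fold above day 0 were 23 of 27 interferon effectors, 5 of 6 leucine-rich proteoglycans and 14 of 21 matricellular proteins. Higher members among collagen maturation genes and annexins were mostly near day 0 levels, and mitotic ones below them. All these members were picked by a high day 6 knockdown value, which also enters the ratio to day 0. The lists therefore cannot be set against each other by these counts.

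In total 91 lists, covering 2258 kept genes (19.3%), were examined, and 57 were described because their median was at least 1 in size or at least 40% of their members were past 2-fold. Of 24 lists with a median of at least 1, 8 also had one against the second control column: interferon effectors, interferon-inducible GTPases, chemokines, other collagens, annexins, S100 proteins, endothelial markers and neural markers. Of 9 lists with a median of -1 or lower, 6 did: potassium channels, histones, metallothioneins, sarcomere, fusion and muscle enzymes and epithelial markers. The medians of GTPases, potassium channels and epithelial markers changed sign under another setting, as given at the end, and that of histones moved either way. The epithelial median is of 2 genes that went opposite ways, Cdh1 (-5.50) and Krt19 (2.70). Of the endothelial markers 2 of 3, and of the neural markers all 3, were under 1 FPKM in the control. These were kept through the knockdown column, so their direction was built in. In 30 of the 57 lists the second control column lay midway between the first control and the knockdown, by the median gene, or nearer the knockdown.

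**Figure D4:**
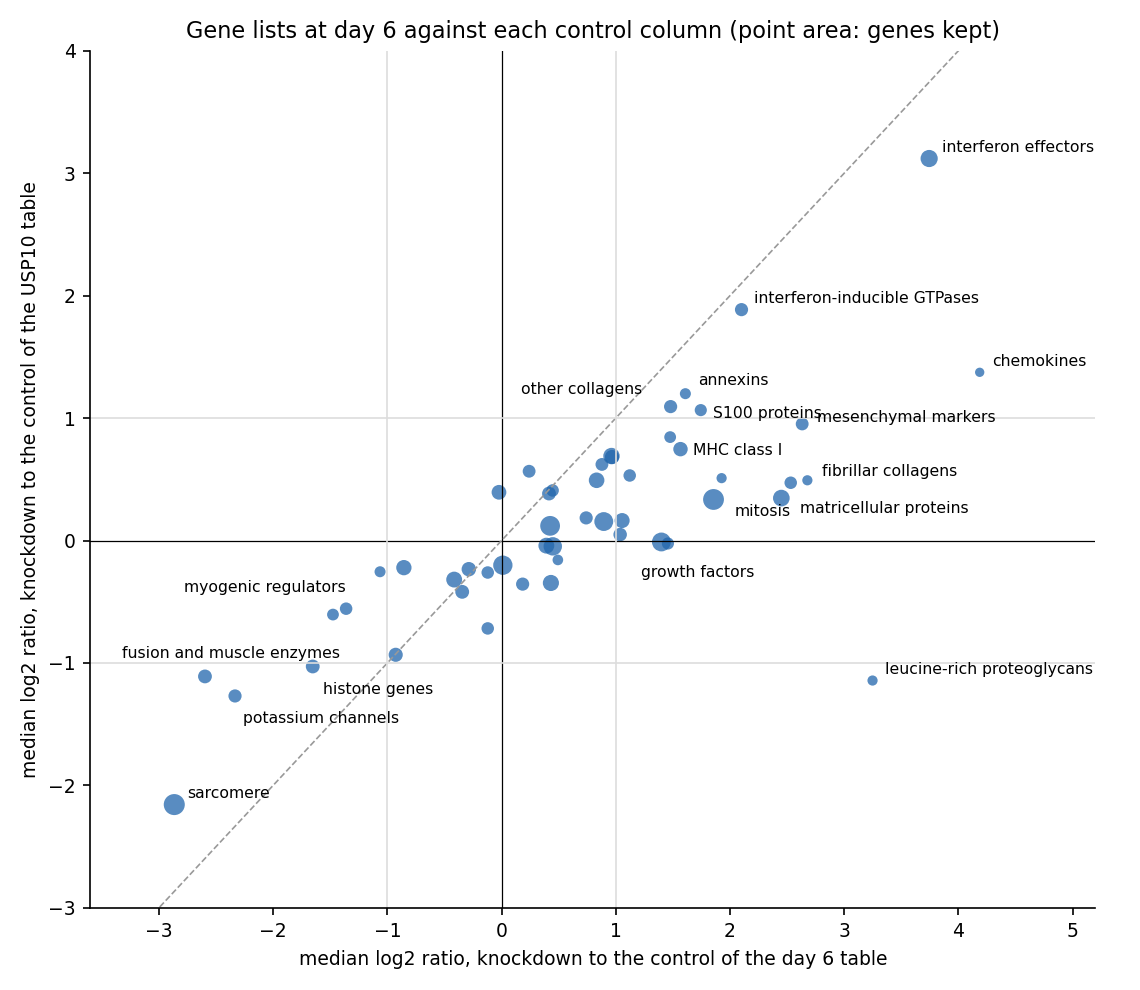
Median log2 ratio of each described list with at least 5 genes kept, as knockdown to the day 6 control (x axis) and knockdown to the control column of the USP10 table (y axis), with point area growing with the number of genes and the dashed line marking equal values. Interferon effectors (3.74 and 3.12) and sarcomere genes (-2.87 and -2.16) keep most of their ratio on the y axis, growth factors (1.40 and -0.01) and mitosis (1.86 and 0.34) near 0 on the y axis, and leucine-rich proteoglycans (3.25 and -1.14) on opposite sides.

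The day 0 and day 8 tables show the same lists in other samples. At day 0, 1.90% of genes were 2-fold higher and 1.69% lower, and of the lists plotted by day every median lay between -0.57 and 0.12. Some lists that were not plotted lay outside this range. Chemokines had 4 of 5 higher at day 0 (median 1.57), and complement genes 3 of 11 higher and 1 lower (0.83). At day 8, with other hairpins, 7.89% were higher and 10.0% lower. Sarcomere genes were again lower there (40 of 47, median -2.02), annexins had a median of -0.31, histones of -0.13 and mitotic genes, with 46 of 48 lower, of -2.96.

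**Figure D5:**
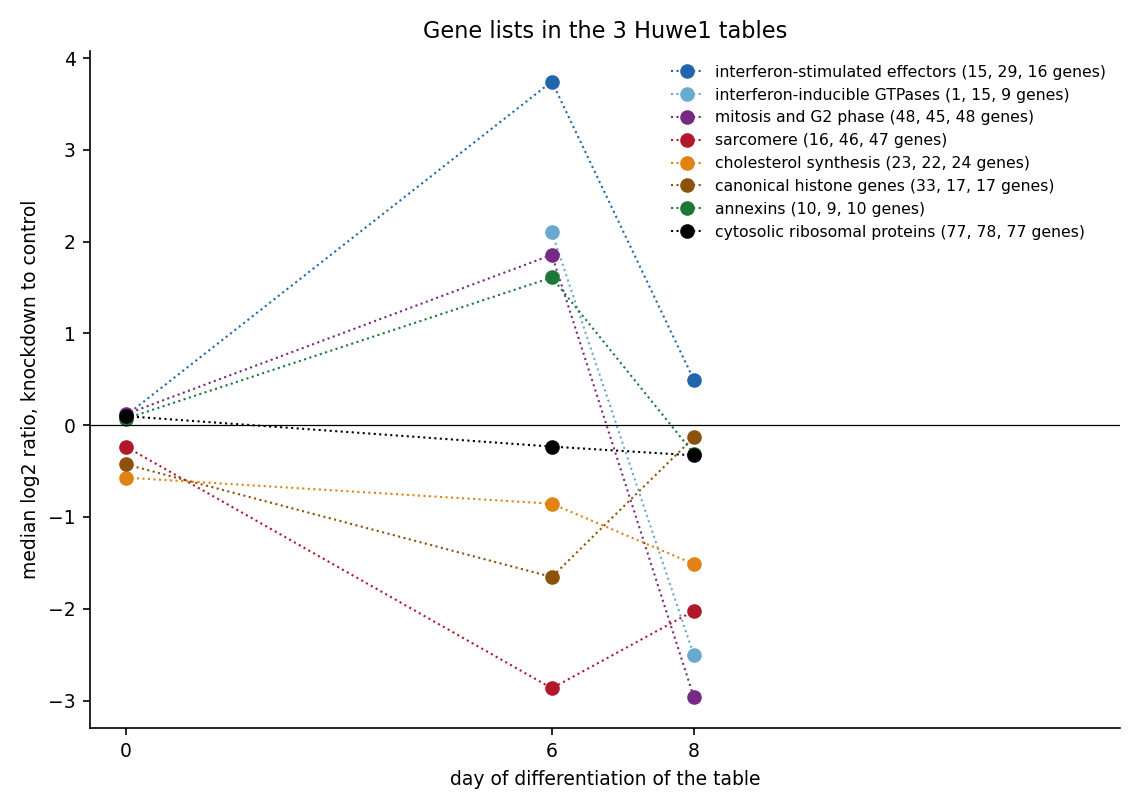
Median log2 ratio of knockdown to control of 8 gene lists in the day 0, day 6 and day 8 tables (x axis, day), with the genes kept on each day in the key; dotted lines join points of the same list and carry no measurement, and the day 8 samples used other hairpins and another control. The GTPases have no day 0 point, since 1 gene was kept there. Interferon effectors go from 0.10 to 3.74 and 0.49, mitosis from 0.12 to 1.86 and -2.96, and ribosomal proteins stay between -0.33 and 0.10.

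Leukocyte, endothelial and epithelial markers were low in both columns, and the few neural markers kept were higher in the knockdown. Of 15 macrophage and leukocyte markers, 3 reached 1 FPKM in either column (Cd68, Cd53 and Cd14), their summed level was 2.77 FPKM in control and 8.23 FPKM in knockdown cells, and the pan-leukocyte marker Ptprc was below the limit in both. Of 10 endothelial markers, 3 were kept, with sums of 2.18 and 8.03 FPKM. Of these Cdh5 was at 0.0241 and 6.83 FPKM and had been at 13.5 FPKM in the day 0 control, while Pecam1 was below the limit. Of 10 epithelial markers, 2 were kept, with sums of 2.11 and 4.13 FPKM. Of 12 neural markers, 3 were kept, with sums of 0.746 and 49.2 FPKM. All 3 were under 1 FPKM in the control, so they were kept through the knockdown column and had to be higher there. Map2 was at 26.1 FPKM in the knockdown, Tubb3 at 17.1 FPKM and Nefl at 5.94 FPKM, and all 3 were also listed in the day 0 control, at 6.84, 61.8 and 70.0 FPKM. Whether these markers have a part in the immune and matrix results was not tested.

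The last comparison was of the TATA box, since the study concerns the TATA-binding protein. TATAAA was looked for on the gene's strand between 45 and 20 bases before the start. Of kept genes with a promoter, 1.38% held it there. The share was 2.21% of 2-fold higher genes, 3.13% of 2-fold lower genes and 0.856% of the rest. Among genes past 8-fold it was 4.66% of the higher (16 genes) and 5.24% of the lower (14 genes). With a minimum of 5 FPKM it was 2.64% of 2-fold higher and 3.09% of 2-fold lower genes, so the share was raised in both directions. Sarcomere genes held it in 4 of 36 promoters, shown here for a pair of myosins and for Fgf21.
Fgf21, chr7:45615503-45615528, minus strand: cctgtctgggTATAAAttctggtatt
Myh1, chr11:67200060-67200085, plus strand: tatttgatccTATAAAagtacccctt
Myh3, chr11:67078261-67078286, plus strand: agtggtggccTATAAAagcccagggg
Genes with a TATA box are few in each group: 32 higher genes, 35 lower genes and 52 of the rest.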

How the data were processed

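Polyadenylated RNA of C2C12 cells had been sequenced, and reads were mapped with Tophat and summarised with Cuffdiff, per the study's methods. The submitters' processing notes name Bowtie2, Cuffdiff and the mm10 build. Versions and annotation are not given in the sources used here. The 4 deposited tables hold FPKM values that the authors computed with Cuffdiff, scaled within each table, in 8 columns, all of which were mapped to groups from the labels. Further columns hold the authors' log2 fold changes, test scores, p-values and q-values, and these were not used. Both knockdown libraries were pooled by the authors in 1 column.

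Genes that reached 1 FPKM in either day 6 column were kept, and log2 ratios were computed with a pseudocount of 0.01 FPKM, which limits the ratio of low genes, in Python 3.11.15 with numpy 2.4.6, pandas 2.3.3 and matplotlib 3.10.9. No test was run, because there is 1 value per condition. Genes were counted as higher or lower from 2-fold on. The scripts were tested on simulated data. Other pseudocounts, other minimum levels, centring, and the control column of the USP10 table were tried as alternatives, the last of these chosen after seeing the data. Depth was estimated from the lowest FPKM of transcripts of at least 1500 bases, and the estimate for the pooled column was not used, since only 18.1% of its low values lay near the commonest step.

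The members and gene lists were chosen with earlier results of these data known. Named genes were Huwe1, genes named in the study's text, the 12 largest ratios in each direction among 6762 genes that reached 10 FPKM in 1 column and 1 FPKM in both, with a locus of 500 bases or more, and, in each list described, up to 4 members with the largest ratios under the same FPKM limits, the most abundant member, up to 2 members against the list's direction and members listed at 0 in 1 column with at least 5 FPKM in the other. Of symbol families the 2 most abundant members were named. Beyond the genes marked in the text, the muscle and other-cell markers, Isg20, Dtx3l, Ifnar1, Irf3, Itgb6, Gstm1, Hk1, Hk2, Pfkl, Pfkp, Tpm3 and the promoter windows shown were chosen after their values were seen. A few members that the rule names are not reported here.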

Additional observations from a re-analysis of the deposited data

Results flagged for a closer look

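A few lists pointed one way at day 6 and the other way in another table, and in none of these cases was the difference tested. The interferon-inducible GTPases had a median log2 ratio of 2.10 at day 6, over 15 genes with 9 higher and 6 lower. At day 8 it was -2.51, over 9 genes with 2 higher and 6 lower. The genes kept thus differed between the days, and the count of lower members was 6 on both. With stricter minimum levels the day 6 median was itself below 0, as given below. Mitotic and G2 genes had a median of 1.86 at day 6 and -2.96 at day 8. The metallothioneins had a median of -1.29 at day 6, against 1.60 at day 0 and 3.66 at day 8. The neural markers had a median of 6.01 at day 6, over 3 genes, and -2.20 at day 8, over 2 genes. All 3 genes of day 6 were under 1 FPKM in the control and so had been kept through the knockdown column. The day 8 samples used other hairpins and a control with a non-targeting RNA, so day, hairpin and control cannot be told apart.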

How the results depend on the processing

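No test of replicates could be run, since each condition has 1 value. No paired analysis was possible because the tables hold no replicate values, and leaving out a replicate was not run for the same reason. The count of 2-fold higher genes went from 2061 to 3937 with no minimum level, 1357 with a minimum of 5 FPKM in either column and 1284 with a minimum of 1 FPKM in both, and that of lower genes from 1571 to 3141 with no minimum. Against the second control column, an alternative chosen after seeing the data, the counts were 1540 and 1076. Of 280 list medians under alternatives, 244 moved by less than 1.5-fold. Signs changed in 13, of which 7 belonged to lists with a median of at least 1 in size and 6 to lists nearer 0. Centring moved 0 of them. The cause was not tested.

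With a pseudocount of 1 the medians were -0.99 for potassium channels, 1.60 for interferon effectors, 1.11 for GTPases, 3.11 for chemokines, 1.43 for complement, 2.34 for leucine-rich proteoglycans, 2.03 for mesenchymal markers, 0.91 for mitosis, -0.92 for histones, 1.30 for claudins and connexins, 1.05 for leukocyte, 0.97 for endothelial and 3.80 for neural markers, and 0.18, reversed, for epithelial markers. With a pseudocount of 0.1 they were 2.87 for endothelial, -0.58 for epithelial and 5.43 for neural markers. With a minimum of 5 FPKM in either column they were 6.33 for chemokines, -2.46 for histones, 1.20 for claudins and connexins and 7.65 for endothelial markers, and reversed to 0.16 for serpins, -2.97 for GTPases and -0.18 for eicosanoid genes. With a minimum of 1 FPKM in both columns they were 1.51 for interferon effectors, 0.19 for cytokines, 2.02 for fibrillar collagens, 0.22 for growth factors, 1.04 for mitosis, -0.41 for histones and 1.20 for claudins and connexins, and reversed to 0.16 for serpins, 0.13 for potassium channels, -2.89 for GTPases, -0.18 for eicosanoid genes and -0.13 for leukocyte markers. The 33 named genes kept their direction under both alternatives run for them.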
